A study of Mus musculus with 26 samples.

Results

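RNA 5-hydroxymethylcytosine (5hmC) peaks were examined on the messages of 10 mouse genes for proteins that accompany RNA polymerase II during transcript elongation. The set was Paf1, Ctr9, Leo1, Cdc73, Rtf1 and Wdr61 of the Paf1 complex, Supt5h, Supt6h, and the FACT subunits Supt16h and Ssrp1. A peak was counted for a gene when its summit, the midpoint of the listed interval, lay within the span of that gene in the GENCODE M1 annotation of mm9. This rule gave 174 of the 56538 listed peaks, and merging of overlapping intervals gave 49 regions of the 23367 in the whole series. Of the 10 genes, 9 held at least 1 peak and Wdr61 held none. Across all coding genes of the annotation, expressed or not, 32.2% (7200 of 22380) held a peak in at least 1 of the 13 libraries.

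The Paf1 complex travels with RNA polymerase II along transcribed genes, where it helps in chromatin modification, including ubiquitylation of histone H2B, and in RNA processing. Supt5h (Spt5) is the large subunit of DSIF, which takes part in promoter-proximal pausing and in processive elongation. Supt6h (Spt6) and FACT are histone chaperones that allow the polymerase to pass through nucleosomes and restore them behind it. In embryonic stem cells the Paf1 complex is known for its part in maintaining the pluripotent state. Cytosine 5-hydroxymethylation is made by oxidation of 5-methylcytosine, and Tet dioxygenases are the enzymes known for it.

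The 13 immunoprecipitated (IP) libraries were made by hMeRIP-seq, in which sonicated, DNase-treated total RNA is precipitated with an antibody to 5hmC, and each peak list was called against an input library of the same sample. WT ESC (3 libraries) were wild-type embryonic stem cells in serum with leukaemia inhibitory factor (LIF), TKO ESC (3) lacked Tet1, Tet2 and Tet3, and WT EB (3) were embryoid bodies of wild-type cells after 4 days without LIF. Tet2-KI ESC (2) carried a Flag, HA and Twin-Strep tag at the end of the endogenous Tet2, and Tet2dRBD-KI ESC (2) carried the same tag on a Tet2 without its RNA-binding domain (RBD). Both knock-in lines were clones picked after CRISPR editing of wild-type ESC, and the sources used here give no number of clones. The study describes its hMeRIP-seq experiments as independent biological replicates, and the sample labels do not tie each library to a culture, so p-values measure the spread between these samples. The marks of cell identity and the loss of Tet transcripts could not be checked from peak positions.

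The lists held 498 to 10383 peaks, and the read depth behind them is unknown. Descriptions of the samples begin with 1608 for replicate 1 of WT ESC and TKO ESC, with 1610 for replicate 1 of WT EB and with 1703 for replicates 2 and 3 of these groups. Replicate 1 of TKO ESC (964 peaks) and of WT EB (498) were the shortest lists. A region without a peak is one where no peak passed the caller's threshold. Transcript levels were not analysed here, and in these bulk samples fewer cells of a type and less RNA per cell cannot be told apart.

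Sequences are shown for the 6 merged regions that had a peak in every library of WT ESC, TKO ESC or WT EB, because these were listed in all replicates of a group. The windows of 5 of them come from intervals that share a base in all replicates of that group, and the Supt16h window lies outside the interval of WT ESC replicate 1. Each is read 5′ to 3′ on the strand of the gene, around the median summit, with exon bases in capitals and intron bases in lower case.
Paf1, end of intron 13 and start of exon 14, chr7:29183791-29183990 on the plus strand: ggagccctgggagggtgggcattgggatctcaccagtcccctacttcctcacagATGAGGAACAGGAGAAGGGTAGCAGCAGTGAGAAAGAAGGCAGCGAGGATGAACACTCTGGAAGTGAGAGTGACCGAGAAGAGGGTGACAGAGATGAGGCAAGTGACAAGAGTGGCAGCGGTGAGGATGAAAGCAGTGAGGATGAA
Rtf1, end of intron 5 and start of exon 6, chr2:119537635-119537834 on the plus strand: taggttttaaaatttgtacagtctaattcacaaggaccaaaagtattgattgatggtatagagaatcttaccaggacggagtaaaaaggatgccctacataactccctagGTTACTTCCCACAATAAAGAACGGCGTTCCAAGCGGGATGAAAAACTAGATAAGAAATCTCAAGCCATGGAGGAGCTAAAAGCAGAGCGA
Supt5h, coding part of exon 2 and start of intron 2, chr7:29123320-29123445 on the minus strand: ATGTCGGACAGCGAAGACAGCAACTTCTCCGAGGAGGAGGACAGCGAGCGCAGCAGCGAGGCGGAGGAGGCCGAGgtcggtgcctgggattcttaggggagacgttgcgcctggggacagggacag
Supt5h, exon 3 and start of intron 3, chr7:29116307-29116506 on the minus strand: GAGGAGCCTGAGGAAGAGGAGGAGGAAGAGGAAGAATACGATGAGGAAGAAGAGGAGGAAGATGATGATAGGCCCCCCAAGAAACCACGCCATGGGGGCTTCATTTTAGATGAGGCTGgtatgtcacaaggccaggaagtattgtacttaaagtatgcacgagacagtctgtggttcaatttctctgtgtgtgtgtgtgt
Supt6h, end of exon 3, intron 3 and start of exon 4, chr11:78046079-78046278 on the minus strand: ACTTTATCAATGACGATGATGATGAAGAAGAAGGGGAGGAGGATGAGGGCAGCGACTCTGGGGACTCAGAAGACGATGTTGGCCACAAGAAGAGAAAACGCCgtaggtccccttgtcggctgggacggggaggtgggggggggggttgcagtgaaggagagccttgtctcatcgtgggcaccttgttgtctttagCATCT
Supt16h, end of exon 12 and start of intron 12, chr14:52796429-52796628 on the minus strand: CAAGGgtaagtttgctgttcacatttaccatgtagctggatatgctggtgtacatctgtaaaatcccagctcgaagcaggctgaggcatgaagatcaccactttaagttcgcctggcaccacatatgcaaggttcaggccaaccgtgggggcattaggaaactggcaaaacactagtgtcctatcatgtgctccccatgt
The Supt5h exon 2 stretch is 126 bases because the window ends at the start codon, without the untranslated exon bases and the intron 1 bases upstream of it, and the others are 200 bases. Exon and intron bases meet within each of the 6 windows, with 75 to 146 exon bases in 5 of them and 5 exon bases in the Supt16h stretch. C and T made up 30% of the Paf1 stretch, 34.1% and 36% of the Supt5h stretches at exons 2 and 3, 38% of Supt6h, 40% of Rtf1 and 49% of Supt16h. The median over all peaks in coding genes was 40.5%, with 30% and 52.5% as the 10th and 90th percentiles. The longest run of A and G was 27 bases in Supt5h exon 3 (gaggaagaggaggaggaagaggaagaa) and 20 bases in Supt6h exon 3 (gaagaagaaggggaggagga). In the Supt16h stretch the longest such run was 6 bases, and no stretch had a run of C and T over 7 bases.

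Paf1, the subunit that names the complex, spans chr7:29177970-29184407 on the plus strand with 14 exons. All 10 of its peaks fell in 1 region, chr7:29183772-29184016, with every summit in the coding sequence of exon 14, the last exon. The region had a peak in all 3 WT ESC, all 3 TKO ESC, both Tet2-KI ESC and both Tet2dRBD-KI ESC libraries, and in none of the 3 WT EB libraries. Fold enrichment, the ratio of IP to input at a summit, was 6.04, 8.34 and 4.56 in WT ESC replicates 1 to 3 and 6.76, 10.1 and 4.99 in the TKO ESC replicates. The groups overlapped, and replicate 2 was the highest and replicate 3 the lowest in each. WT ESC averaged 6.31 ± 1.91 and TKO ESC 7.29 ± 2.60 (SD over 3 libraries each). The log2 difference, WT ESC minus TKO ESC, was -0.19, with p = 0.6 by a two-sided exact permutation test and 0.987 after Benjamini-Hochberg adjustment over the 244 coding-gene regions with a peak in all 6 libraries. Values of the 2 groups did not overlap in 9.02% of those 244 regions. The smallest p that 3 libraries against 3 can give is 0.1. No member region had a peak in all 6 WT ESC and WT EB libraries, where 85 coding-gene regions did and 20% of these did not overlap.

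Ctr9, the scaffold subunit of the complex, held 2 regions, both towards the end of the gene (chr7:118172465-118199891, plus strand, 25 exons). The region at exon 22, chr7:118195795-118196087, had a peak in TKO ESC replicate 3 (4.93-fold), Tet2-KI ESC replicate 1 and Tet2dRBD-KI ESC replicate 2. The region chr7:118196753-118197008, in intron 22 by its median summit, had a peak in TKO ESC replicate 3 (6.94-fold) and Tet2-KI ESC replicate 1. No WT ESC or WT EB library had a peak on Ctr9.

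Leo1, a subunit that binds RNA, held 3 regions within 4.26 to 7.82 kb of its start (chr9:75289331-75314239, plus strand, 12 exons). The region in exon 2, chr9:75293488-75293738, was listed in WT ESC replicates 2 and 3 at 3.56-fold and 5.39-fold and in Tet2-KI ESC replicate 1. The region in exon 3, chr9:75294828-75295106, was listed in WT ESC replicate 2 at 9.98-fold and WT EB replicate 2 at 7.66-fold. The region in intron 4, chr9:75297039-75297257, was listed in WT ESC replicates 2 and 3 at 6.07-fold and 9.49-fold, in WT EB replicate 3 at 5.87-fold and in Tet2-KI ESC replicate 1. Neither TKO ESC nor Tet2dRBD-KI ESC had a Leo1 peak in any library.

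Cdc73 (parafibromin), the subunit known as a tumour suppressor in parathyroid tissue, is the longest member (chr1:145445927-145550023, minus strand, 17 exons) and held 9 regions. In exon 7, chr1:145524791-145525044 reached 12.8-fold and 13.2-fold in WT EB replicates 2 and 3 and was listed in both Tet2-KI ESC libraries and in Tet2dRBD-KI ESC replicate 1. No WT ESC or TKO ESC library had a peak there. At intron 6, 28 bases from an exon end, chr1:145532920-145533152 was listed in WT EB replicates 2 and 3 at 6.08-fold and 14.8-fold, in TKO ESC replicate 2 at 5.26-fold and in both Tet2-KI ESC libraries. Inside intron 10, 7323 bases from any exon, chr1:145507286-145507533 was listed in the same WT EB libraries at 5.79-fold and 7.40-fold and in TKO ESC replicate 2 at 7.99-fold. WT ESC had none of these 3 regions. In the 3′ UTR, chr1:145447015-145447225 was listed in both Tet2-KI ESC libraries and Tet2dRBD-KI ESC replicate 2 and in none of the other 10 libraries. The remaining 5 regions each came from a single library.

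Rtf1, the subunit linked to H2B ubiquitylation, spans chr2:119500804-119561143 (plus strand, 18 exons) and held 7 regions. The region at the end of intron 5, chr2:119537617-119537861, whose sequence is given above, had fold enrichments of 6.46, 18.3 and 10.9 in TKO ESC replicates 1 to 3 (mean 11.9 ± 5.99, SD, n = 3). It was listed in WT ESC replicate 2 only at 5.05-fold, in WT EB replicate 3 at 14.4-fold and in Tet2-KI ESC replicate 1. Nearby in intron 5, 34 bases from an exon end, chr2:119536729-119536963 gave 8.98-fold in WT ESC replicate 2, 8.87-fold and 12.8-fold in TKO ESC replicates 2 and 3, and 12.8-fold and 23.9-fold in WT EB replicates 2 and 3. It was also listed in Tet2-KI ESC replicate 1. The 23.9-fold value was the highest of any member region. The region chr2:119531097-119531518 joins peaks of exon 4 and intron 4. In exon 4 it was listed at 6.14-fold in WT ESC replicate 3 and 8.30-fold in WT EB replicate 3, and in intron 4 at 10.3-fold in TKO ESC replicate 3, at 10.6-fold in WT EB replicate 3 and in Tet2-KI ESC replicate 1. The WT ESC interval did not overlap those of TKO ESC and Tet2-KI ESC. At intron 6, chr2:119545751-119545982 was listed in WT EB replicates 2 and 3 at 7.47-fold and 5.91-fold and in Tet2-KI ESC replicate 1. The 3′ UTR region chr2:119559272-119559495 was listed in TKO ESC replicates 1 and 3, at 6.22-fold and 6.27-fold, and nowhere else. Neither Tet2dRBD-KI ESC library had a peak on Rtf1, nor did Tet2-KI ESC replicate 2, and 2 regions came from a single library each.

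Wdr61 (Ski8), a WD-repeat subunit that the Paf1 complex shares with the Ski complex of RNA decay, held no peak (chr9:54562542-54595757, minus strand, 11 exons). The exons of its longest coding transcript made up 3.88% of the span, the lowest of the 10 genes. That transcript reaches only from 13.4 to 30.8 kb of the 33.2 kb span, and a link with the lack of peaks was not tested.

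**Figure D1:**
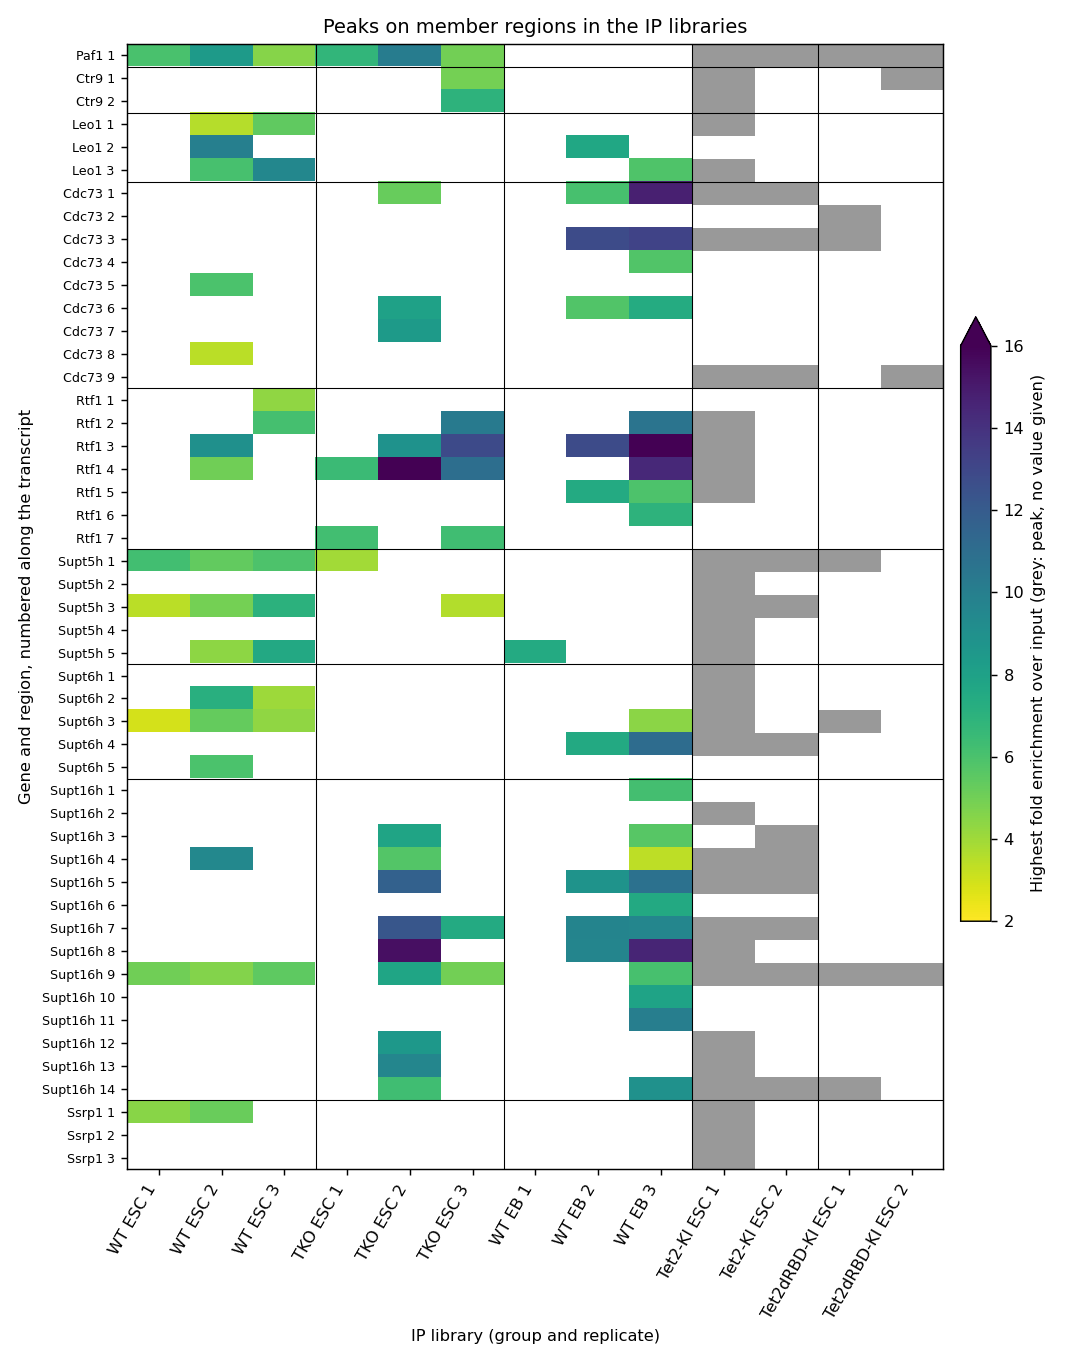
Member regions with a peak in each of the 13 IP libraries, with regions in rows, numbered along the transcript within each gene, and libraries in columns. Colour gives the highest fold enrichment over input in a library, grey marks a peak in a list without fold enrichment and white marks no peak. The Paf1 region is filled in every ESC library and empty in WT EB, and the block of Supt16h regions is filled mainly in TKO ESC replicate 2, WT EB replicate 3 and Tet2-KI ESC.

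Supt5h spans chr7:29099917-29123738 on the minus strand with 30 exons, and its 5 regions all lay within 9.15 kb of its start. The region nearest the start, chr7:29123127-29123735, covered exon 2 and intron bases on both sides and was listed in 7 libraries with 11 peaks. Of the peaks that reach across the end of exon 2, fold enrichment was 6.23, 4.07 and 5.54 in WT ESC replicates 1 to 3 and 3.97 in TKO ESC replicate 1, the only TKO ESC library with a peak. Peaks in intron 1 gave 4.62, 5.34 and 5.91-fold in the same WT ESC replicates. Both Tet2-KI ESC libraries had a peak at exon 2, and the peak of Tet2dRBD-KI ESC replicate 1 lay in intron 2 and touched no exon. The region of exon 3, chr7:29116278-29116543, gave 3.45, 4.95 and 7.02-fold in WT ESC (mean 5.14 ± 1.79, SD, n = 3) and 3.61-fold in TKO ESC replicate 3. It was listed in both Tet2-KI ESC libraries and in no Tet2dRBD-KI ESC library. Neither region had a peak in WT EB. At intron 6, chr7:29114463-29114801 was listed in WT ESC replicates 2 and 3 at 4.40-fold and 7.55-fold, in WT EB replicate 1 at 7.44-fold, its only peak on a member, and in Tet2-KI ESC replicate 1. The 2 other regions were found in Tet2-KI ESC replicate 1 alone.

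Supt6h (chr11:78020248-78059489, minus strand, 37 exons) held 5 regions, and 3 neighbours among exons 2 to 5 had different libraries. At exon 3, chr11:78046031-78046469 gave 2.92, 5.29 and 4.30-fold in the WT ESC replicates (mean 4.17 ± 1.19, SD, n = 3) and 4.41-fold in WT EB replicate 3. It was also listed in replicate 1 of Tet2-KI ESC and of Tet2dRBD-KI ESC, and in no TKO ESC library. At exon 2, chr11:78046936-78047304 was listed in WT ESC replicates 2 and 3 at 7.17-fold and 4.08-fold and in Tet2-KI ESC replicate 1. At exon 5, chr11:78045409-78045821 was listed in WT EB replicates 2 and 3 at 7.52-fold and 11.1-fold and in both Tet2-KI ESC libraries, with 2 peaks in each of the 4, and in no WT ESC library. TKO ESC had no Supt6h peak at all. The 5′ UTR region was found in Tet2-KI ESC replicate 1 alone, and the region in exon 29 in WT ESC replicate 2 alone (5.99-fold).

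Supt16h, the large subunit of FACT, held the most regions, 14, with 53 peaks in 11 libraries (chr14:52780094-52816914, minus strand, 26 exons). The number of its regions was 1, 2 and 1 in the WT ESC replicates, 0, 9 and 2 in TKO ESC, 0, 3 and 11 in WT EB, 9 and 6 in Tet2-KI ESC, then 2 and 1 for Tet2dRBD-KI ESC. The 11 regions of WT EB replicate 3 and the 9 of TKO ESC replicate 2 stood far above the other libraries of their groups. The most widely listed region, chr14:52796120-52796883, had a peak in 10 libraries and was centred on intron 12. It is a chain of overlapping intervals, with 10 of its 14 summits in intron 12, 2 in intron 11 and 2 in intron 13. The WT ESC peak of replicate 1 (5.04-fold, chr14:52796120-52796319) lay in intron 13 and overlapped neither the replicate 2 peak (4.57-fold, chr14:52796488-52796687) nor the replicate 3 peak (5.49-fold, chr14:52796438-52796637), both in intron 12. In TKO ESC replicate 2 the intron 12 peak gave 7.43-fold, with 7.76-fold in intron 11 and 4.99-fold in intron 13. In intron 12, TKO ESC replicate 3 gave 4.98-fold and WT EB replicate 3 gave 6.05-fold, and all 4 knock-in libraries had a peak there.

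Supt16h regions at exons 3, 4 and 5 and introns 8 and 9 were listed mainly outside WT ESC. At exon 5, chr14:52801242-52801469 was listed at 11.6-fold in TKO ESC replicate 2, at 8.82-fold and 10.8-fold in WT EB replicates 2 and 3 and in both Tet2-KI ESC libraries. In intron 8, chr14:52798993-52799227 was listed at 12.3-fold and 7.45-fold in TKO ESC replicates 2 and 3, at 9.67-fold and 9.59-fold in WT EB replicates 2 and 3 and in both Tet2-KI ESC libraries. In intron 9, chr14:52797756-52797976 was listed at 15.4-fold in TKO ESC replicate 2, at 9.61-fold and 14.5-fold in WT EB replicates 2 and 3 and in Tet2-KI ESC replicate 1. No WT ESC and no Tet2dRBD-KI ESC library had a peak in any of these 3 regions. At exon 4, chr14:52801742-52802092 was listed at 9.49-fold in WT ESC replicate 2, 5.74-fold in TKO ESC replicate 2, 3.39-fold in WT EB replicate 3 and in both Tet2-KI ESC libraries. At exon 3, chr14:52802554-52802918 was listed at 7.82-fold in TKO ESC replicate 2, at 5.65-fold in WT EB replicate 3 and in Tet2-KI ESC replicate 2. Near the end of the gene, chr14:52781385-52781612 at intron 25 was listed at 6.30-fold in TKO ESC replicate 2, at 8.92-fold in WT EB replicate 3, in both Tet2-KI ESC libraries and in Tet2dRBD-KI ESC replicate 1. The exon 25 region chr14:52782330-52782576 and the exon 24 region chr14:52782765-52782971 were listed in TKO ESC replicate 2, at 9.59-fold and 8.55-fold, and in Tet2-KI ESC replicate 1. The last 5 regions came from WT EB replicate 3 (4) or Tet2-KI ESC replicate 1 (1) alone.

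Ssrp1, the small subunit of FACT, held 3 regions in 5 peaks (chr2:84877355-84887266, plus strand, 18 exons). At exon 14, chr2:84885545-84885847 was listed at 4.48-fold and 5.20-fold in WT ESC replicates 1 and 2 and in Tet2-KI ESC replicate 1. The others came from Tet2-KI ESC replicate 1 alone, and TKO ESC, WT EB and Tet2dRBD-KI ESC had no Ssrp1 peak. The FACT subunits, which act as a pair, had 53 and 5 peaks.

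**Figure D2:**
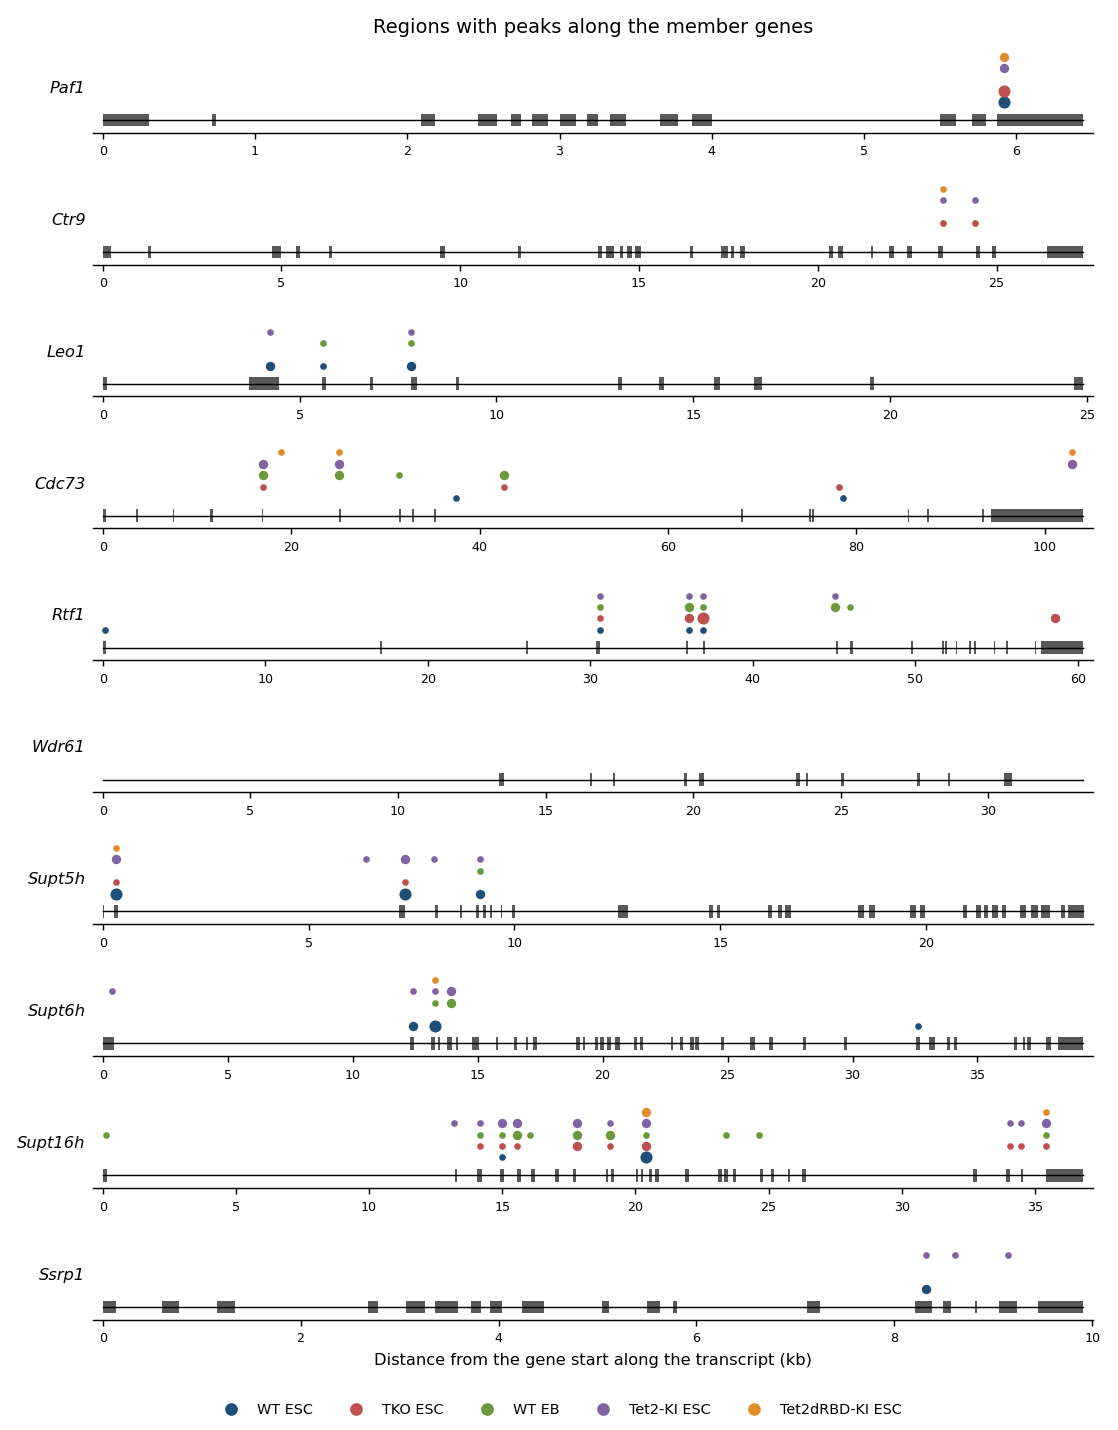
Positions of the member regions along each gene, as distance in kb from the gene start, with exons of the longest coding transcript as dark boxes. A dot above the line is a region with a peak in a group, coloured by group, and its size grows with the number of libraries. Dots sit over or beside exons in most genes, the Supt5h regions lie in the first 9.15 kb, and Wdr61 has none.

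Nearly all member peaks lay on or beside exons. The interval of 165 of the 174 peaks (94.8%) touched an annotated exon, against 47.1% of the 45484 peaks in coding genes on which place and composition were computed. Of the 174 summits, 69 lay in coding sequence, 98 in introns, 5 in 3′ UTRs and 2 in 5′ UTRs. Of the 98 intronic summits, 89 (90.8%) were within 100 bases of an exon end, with a median distance of 30 bases. Over all coding genes 22.2% of the intronic summits were that near, and the median distance was 1577 bases. The 9 peaks that touched no exon were 7 on Cdc73 and 2 on Supt5h. One of them, in Tet2dRBD-KI ESC replicate 1, lies in intron 6 of Cdc73 at chr1:145530991-145531190, where the annotation also places the pseudogene Gm6397, and the listed intervals carry no strand. The share that touched an exon was 95% of 40 member peaks in WT ESC, 93.5% of 31 in TKO ESC, 94.6% of 37 in WT EB, 98.2% of 55 in Tet2-KI ESC and 81.8% of 11 in Tet2dRBD-KI ESC. Over all coding genes it was 37.4%, 51.4%, 70.6%, 42.9% and 50.5% in the same order. Peaks of a region share their position, so these counts are a description and carry no test.

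**Figure D3:**
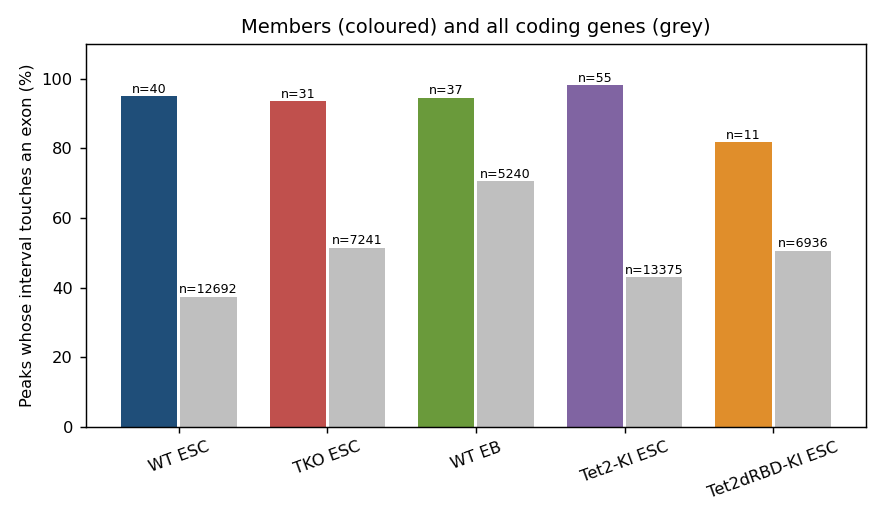
Share of peaks whose 200 bp interval touches an exon, in percent, for the member genes (coloured bars) and for all coding genes (grey bars) in each group, with the number of peaks above each bar. The member bars run from 81.8% to 98.2% and the grey bars from 37.4% to 70.6%.

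The base composition of member peaks was close to that of peaks in general. The median share of C and T on the gene strand was 41.5% over the member peaks, with 34% and 50% as the 10th and 90th percentiles, beside the 40.5% over all. Shares of at most 35% were found in 30 member peaks (17.2%) and in 24.8% of all. Pyrimidine-rich intervals, with at least 65% C and T, were 1 of the member peaks (0.575%) and 3.47% of all. A run of A and G of at least 15 bases was present in 48 member peaks (27.6%) and in 21.5% of all, and a run of C and T of that length in 2 (1.15%) and 5.12%.

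**Figure D4:**
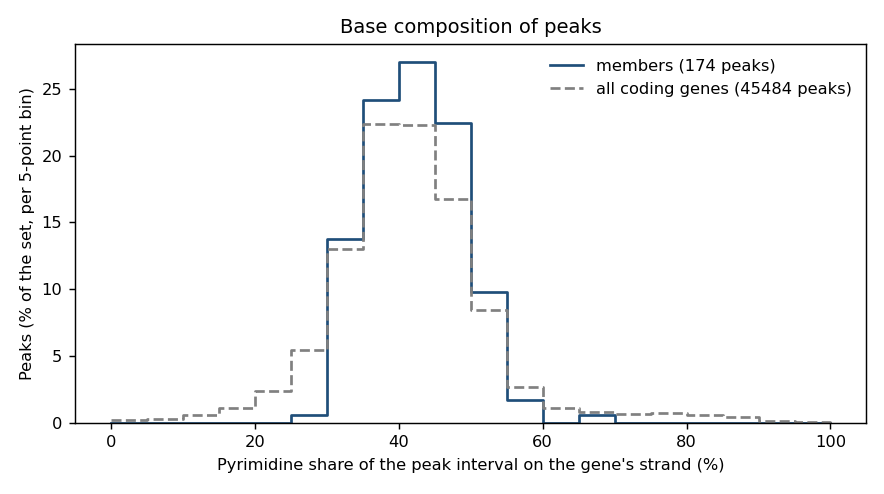
Distribution of the share of pyrimidines in the 200 bp intervals, read along the gene, in percent, for the 174 member peaks (solid line) and the 45484 peaks in coding genes (dashed line), as percent of each set per bin. Both distributions peak near 40%, and the tails of the dashed line reach further on each side.

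The first comparison asked whether the members lost peaks in cells without Tet enzymes. Member regions with a peak numbered 6, 17 and 11 in WT ESC replicates 1 to 3 and 4, 15 and 10 in TKO ESC. The means, 11.3 ± 5.51 and 9.67 ± 5.51 (SD, n = 3 each), differed by 1.67 regions (two-sided exact permutation test, p = 0.7). Each WT ESC library had 1 or 2 more member regions than the TKO ESC library of the same number, although the numbers were not taken to pair the samples. The difference was 1.5 within the 1703 replicates. The lists of TKO ESC were shorter, and per 1000 listed peaks the members had 1.82, 2.81 and 1.85 peaks in WT ESC and 4.15, 3.93 and 3.07 in TKO ESC. On this scale every TKO ESC library lay above every WT ESC library (difference WT ESC minus TKO ESC -1.56, p = 0.1, exact permutation test, the smallest it can give). Per 1000 peaks in coding genes, a denominator not planned beforehand, the groups overlapped, with 3.76 in WT ESC replicate 2 and 3.69 in TKO ESC replicate 3. The difference was -1.39 (p = 0.2, exact permutation test). With peaks that touch an exon in both numerator and denominator, an alternative chosen after seeing the data, the means were 7.44 ± 1.68 and 7.58 ± 0.344 (SD, n = 3 each) and the difference was -0.15 (p = 0.9, exact permutation test).

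Of the 5 member regions with a peak in every WT ESC library, 1 had no peak in TKO ESC, the exon 3 region of Supt6h. Over all coding genes 26.4% of the 1086 such regions had none. Where the WT ESC intervals also had to share a base, a rule added after seeing the data, the Supt16h region dropped out and the count was 1 of 4, against 26% of 1056. Within replicates 2 and 3, whose descriptions begin with 1703, 6 of 9 member regions had no TKO ESC peak, against 37.9% of 2179 over all coding genes. With a peak in at least 2 of the 3 WT ESC libraries required, 6 of 10 had none in TKO ESC, against 41.8% of 2884. In the other direction, 6 member regions had a peak in at least 2 TKO ESC libraries, and 2 of these, the Rtf1 3′ UTR and Supt16h intron 8, had none in WT ESC, against 17.5% of 1702 regions over all coding genes. Leo1, Supt6h and Ssrp1 had WT ESC peaks and no TKO ESC peak, and Ctr9 had the reverse, from TKO ESC replicate 3 alone. The share of all coding genes with such a pattern was not computed and the TKO ESC lists were shorter, so this describes the lists only.

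The comparison of WT ESC with WT EB concerned differentiation. Member regions numbered 1, 10 and 23 in the WT EB replicates, averaging 11.3 ± 11.1 (SD, n = 3), and their mean difference from WT ESC was 0 (p = 1, exact permutation test). Per 1000 listed peaks WT EB had 2.01, 6.01 and 7.08, and replicates 2 and 3 lay above every WT ESC library whereas replicate 1 lay among them (difference -2.87, p = 0.2, exact permutation test). Among peaks that touch an exon the means were 7.44 ± 1.68 and 7.42 ± 3.36 (SD, n = 3 each; p = 1, exact permutation test). Of the 5 regions listed in every WT ESC library, the Paf1 region and both Supt5h regions, 3 in all, had no WT EB peak, against 47.5% over all coding genes. All 5 had none when WT EB replicate 3 was left out, against 53.7% of 1086 over all coding genes. Without WT ESC replicate 1 the count was 5 of 9, against 53.6% of 2179. Within the 1703 replicates it was 6 of 9, against 57.5% over all coding genes, and for regions of at least 2 WT ESC libraries 6 of 10, against 60.1%. The Supt16h region around intron 12 and Supt6h exon 3 were listed in WT EB replicate 3 only.

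WT EB peaks were listed in 25 member regions of 6 genes, and 16 of these had no WT ESC peak, against 49.6% of 3737 over all coding genes. The genes differed in this: none of the 4 Cdc73 regions and 2 of the 11 Supt16h regions with a WT EB peak also had a WT ESC peak, as did 3 of 5 for Rtf1, 1 of 2 for Supt6h, both for Leo1 and the single one for Supt5h. Of 9 member regions with a peak in at least 2 WT EB libraries, 8 had none in any WT ESC library. They were 3 regions of Cdc73 (introns 6 and 10 and exon 7), Rtf1 intron 6, Supt6h exon 5 and 3 regions of Supt16h (exon 5 and introns 8 and 9). The exception was the Rtf1 region with 23.9-fold in WT EB replicate 3. Over all coding genes 22.3% of 1192 such regions had no WT ESC peak, and 25.2% of 897 where the region touched an exon, beside 7 of 8 member regions. This pattern was chosen after its values were seen, the regions share 4 genes, and it rests on WT EB replicates 2 and 3 alone, since none of the 8 was listed in replicate 1. Of the 8, 5 had a peak in TKO ESC, 7 had one in Tet2-KI ESC and 1 was listed for Tet2dRBD-KI ESC. Over all coding genes the shares of the 266 such regions were 71.4%, 51.9% and 10.9%.

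**Figure D5:**
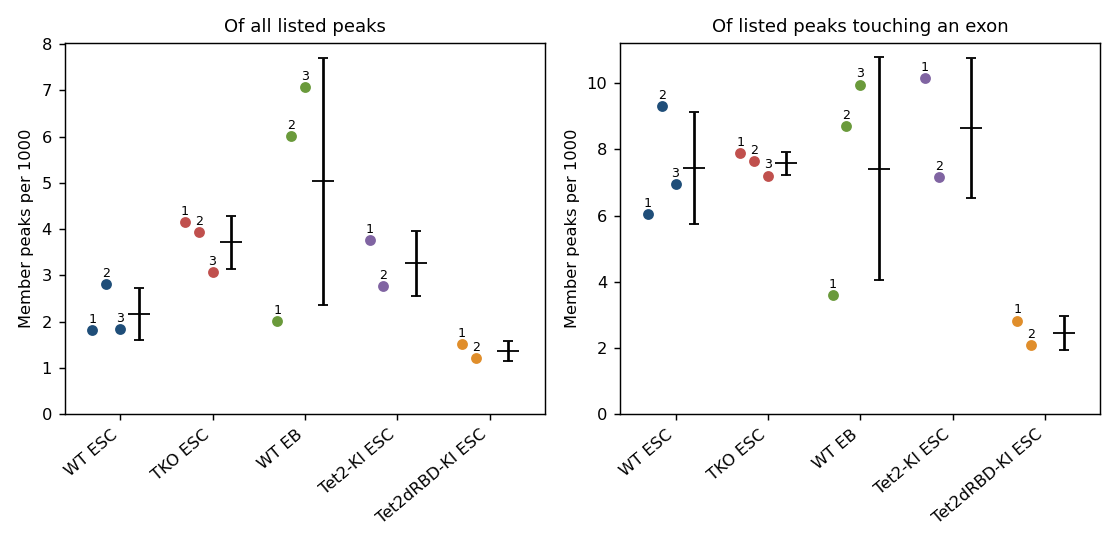
Member peaks per 1000 listed peaks (left) and per 1000 listed peaks that touch an exon (right) in each library, with points numbered by replicate and bars for the mean and SD of a group. TKO ESC lies above WT ESC on the left and among WT ESC on the right, and Tet2dRBD-KI ESC (2.83 and 2.10 on the right) lies below Tet2-KI ESC (10.1 and 7.16) in both.

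The knock-in comparison asked about the RNA-binding domain of Tet2. Member regions numbered 33 and 13 in the Tet2-KI ESC libraries, and 7 and 4 in those of Tet2dRBD-KI ESC, means of 23 ± 14.1 and 5.5 ± 2.12 (SD, n = 2 each), with no overlap between groups (difference 17.5, p = 0.333, exact permutation test). Leaving out Tet2-KI ESC replicate 1 gave a difference of 7.5, and leaving out its replicate 2 gave 27.5. With 2 libraries against 2 no p can be below 0.333. The lists differed in length too (10383 and 5781 against 4639 and 3318), and per 1000 listed peaks the members had 3.76 and 2.77 against 1.51 and 1.21 (difference 1.90, p = 0.333, exact permutation test). Among peaks that touch an exon the values were 10.1 and 7.16 against 2.83 and 2.10 (difference 6.19, p = 0.333, exact permutation test). Tet2-KI ESC had a peak in 34 member regions, and 8 of these were listed for Tet2dRBD-KI ESC too, against 30.6% of 10317 over all coding genes. Of 12 regions with a peak in both Tet2-KI ESC libraries, 6 had none in Tet2dRBD-KI ESC, against 35.2% of 2696 over all coding genes. Both shares moved with the libraries used. They were 7 of 13 against 55.2% without Tet2-KI ESC replicate 1, 25 of 33 against 66.7% without Tet2-KI ESC replicate 2, 9 of 12 against 66.7% without Tet2dRBD-KI ESC replicate 1 and 7 of 12 against 39.9% without Tet2dRBD-KI ESC replicate 2. The 6 regions were Cdc73 intron 6, Supt5h exon 3, Supt6h exon 5, and Supt16h exons 4 and 5 and intron 8. Of the same 12, 7 had no peak in WT ESC, against 33.5%. Leo1, Rtf1 and Ssrp1 had Tet2-KI ESC peaks in replicate 1, the longest list, and no Tet2dRBD-KI ESC peak. Tet2-KI ESC replicate 2 had no peak on these genes either. The share of all coding genes with such a pattern was not computed.

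Members differed in how often a region was found again. Regions of a single library were 18 of 49, against 54.2% of the 18820 coding-gene regions, with 6 from Tet2-KI ESC replicate 1, 6 from WT EB replicate 3, 3 from WT ESC replicate 2 and 1 each from WT ESC replicate 3, TKO ESC replicate 2 and Tet2dRBD-KI ESC replicate 1. Regions of at least 5 libraries were 13, against 13.3%. No peak in WT ESC was found for 30 of the 49 regions, against 55.3%. All 10 member regions listed in at least 2 WT ESC libraries were also listed in Tet2-KI ESC, against 75.8% of 2884 over all coding genes, and 4 of them in Tet2dRBD-KI ESC, against 47.6%. Of the 31 member regions of at least 2 libraries, 28 had a base shared by the intervals of every listed library. The others were the Supt16h region around intron 12, Rtf1 exon 4 and intron 4, and Supt5h exon 2. The median fold enrichment of member peaks was 4.55, 5.25 and 5.52 in WT ESC, beside 6.25, 5.56 and 5.55 for the whole lists, and 6.34, 8.35 and 6.61 in TKO ESC, beside 6.31, 7.28 and 6.52. In WT EB replicates 2 and 3 it was 7.66 and 7.86, beside 7.24 and 7.07.

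A list of 32 other genes of transcript elongation was read in the same way. Of these, 23 (71.9%) held a peak, in 89 regions, beside 32.2% of all coding genes of the annotation, expressed or not. A peak in every WT ESC library was found for 8 regions of 6 genes, beside 5.77% of the 18820 coding-gene regions. The genes were Ccnt1, the cyclin of P-TEFb, its inhibitor Hexim1, the super elongation complex subunits Aff1 and Mllt1, the Spt6 partner Iws1 and the H2B ubiquitin ligase Rnf20. Of the 8 regions, 2 (on Ccnt1 and Aff1) had no TKO ESC peak, beside 26.4% over all coding genes, and 3 (these and Hexim1) had no WT EB peak, beside 47.5%. Of 16 regions with a peak in at least 2 WT EB libraries, 3 had none in WT ESC, all on the elongation factor gene Tcea1, beside 22.3%. No peak was listed on 9 genes of the list, which were Supt4a, the DSIF partner of Supt5h, the NELF subunits Nelfa, Nelfcd and Nelfe, and Ell3, Eaf1, Tceb3, Ube2a and Dot1l.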

How the data were processed

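Lists of 13 IP libraries were used, and the 13 input samples entered only through peak calling. The authors filtered and trimmed reads (Trimmomatic), mapped them with STAR to mm9 and called peaks with MACS2, each IP against its input, at a q-value below 0.05. For 9 libraries (the wild-type ESC and EB and the TKO ESC) the deposited ratio is the fold enrichment over input, and for the 4 knock-in libraries only positions of 200 bp intervals were used. Neither read counts nor depth were given, so no counting interval is attached to a value.

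Intervals of all libraries were merged at an overlap of 1 bp (Python 3.11.15, pandas 2.3.3). The highest ratio stood for a library with several peaks in a region. NCBIM37, the assembly of mm9, gave sequence, and 99.7% of the intervals lay on its chromosomes. A peak was placed by the coding transcripts of its gene, and exon numbers are those of the longest. Library values were compared by two-sided exact permutation tests with a threshold of 0.05. The code was tested on simulated presence data. All 10 members and every region of at least 2 libraries were named, and of the pathway list those with a region in every WT ESC library. Tcea1 and the genes without a peak were named in addition, after their values were seen. The members, lists and tests were chosen with earlier results of these data known. All symbols of the pathway list were found, 5 by an older symbol. A further gene of that list is not reported here. Alternatives were other overlaps, stricter or shortened lists, 1703 libraries only, a replicate block and leaving out each library.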

Additional observations from a re-analysis of the deposited data

How the results depend on the processing

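No test here could pass 0.05, so what follows concerns directions and counts only. Of 67 alternatives for a difference that was not 0, 59 kept its direction, and of 39 for a count, 21 stayed within 1.5 times. Some of the 67 could not move by construction. A replicate block keeps the mean difference, and the 100 bp overlap keeps the member peaks per 1000. No library had more than 1 peak in the Paf1 region, so taking the mean of a library's peaks changed nothing there. The difference in member regions between WT ESC and WT EB, 0, had no direction to keep, and its 12 alternatives ran from -5.17 to 5.83. With fold enrichment of at least the median (6.18), the difference in member regions, WT ESC minus TKO ESC, turned from 1.67 to -4.67, no member region was left in every WT ESC library, so the counts with no TKO ESC or WT EB peak were 0 of 0, and 5 of 6 regions of at least 2 WT EB libraries had no WT ESC peak, beside 36.7% over all coding genes. With lists shortened to their 498 highest peaks the difference was -2.33, the counts again 0 of 0, and the last count 3 of 3, beside 48.8%. With an overlap of 100 bp, WT ESC regions with no TKO ESC peak were 2 of 5 (beside 25.7%), those with no WT EB peak 4 of 5 (46.9%) and Tet2-KI ESC regions with no Tet2dRBD-KI ESC peak 8 of 13 (35.9%). With the 1703 libraries only, 6 of 9 regions had no TKO ESC peak and 6 of 9 no WT EB peak, beside 37.9% and 57.5% over all coding genes. With presence in at least 2 of 3 WT ESC libraries these were 6 of 10 and 6 of 10, beside 41.8% and 60.1%. Among peaks that touch an exon, the WT ESC minus WT EB difference per 1000 was 0.011. The Paf1 difference became 0.020 when fold enrichment was divided by the median of its own list. The causes were not tested.

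Leaving out 1 library moved the difference in member regions between WT ESC and TKO ESC from -1.17 (without WT ESC replicate 2, and without TKO ESC replicate 1) to 4.33 (without WT ESC replicate 1, and without TKO ESC replicate 2), and that between WT ESC and WT EB from -5.17 (without WT EB replicate 1) to 5.83 (without WT EB replicate 3). WT ESC regions with no TKO ESC peak ran from 1 to 5, highest without WT ESC replicate 1 (5 of 9, beside 35.2% over all coding genes). Those with no WT EB peak ran from 3 to 5, highest without WT ESC replicate 1 (5 of 9, beside 53.6%) and without WT EB replicate 3 (5 of 5, beside 53.7%). Tet2-KI ESC regions with no Tet2dRBD-KI ESC peak ran from 7 (7 of 13, beside 55.2%, without Tet2-KI ESC replicate 1) to 25 (25 of 33, beside 66.7%, without Tet2-KI ESC replicate 2), and the difference in member regions from 7.5 to 27.5 in the same order. The Paf1 difference ran from -0.43 to 0.075. Same-numbered libraries of WT ESC and TKO ESC deviated together with correlations of 0.165, 0.0635 and 0.0198, and those of WT ESC and WT EB with 0.100, 0.0258 and 0.00307, so the numbers were not taken to pair the samples. Not every library correlated best with its own number. With a replicate block the differences were the same for WT ESC against TKO ESC. They were 1.67 regions, -1.56 per 1000 and a log2 difference of -0.19 for Paf1 (sign-flip test, exact, p = 0.25 for each, the smallest it can give). No alternative could be computed for fold enrichment in WT ESC against WT EB, where no member region had all 6 libraries.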
